A study of Mus musculus with 33 samples.

Results

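Cells that carried transcripts of both Kit and Cd34 were examined in single-cell RNA-seq of mouse bone, brain, liver and lung. A cell was taken if it had at least 500 UMIs (unique molecular identifiers, each standing for 1 captured transcript) of genes, at least 200 genes, at most 15% mitochondrial UMIs, at least 1 UMI of Kit and at least 1 of Cd34. It also had to lack Mcpt8, a basophil protease, and not to hold 5 or more UMIs of each of Elane, Mpo and Prtn3, the protease and peroxidase genes of early granulocyte precursors. The rule took 243 of 55366 cells, with 80 of 15997 from bone, 70 of 17926 from lung, 54 of 11778 from liver and 39 of 9665 from brain. They are called Kit/Cd34 cells here. On the mm10 assembly Kit lies at chr5:75574916-75656722 and Cd34 at chr1:194938819-194961279, both on the plus strand.

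The cells came from a study of the niche of bone metastases, in which a labelling method named SAMENT put biotin on cells in the tissue, and cells were then sorted into biotin positive (tagged) and biotin negative samples. The labels do not describe what the label marks. Mice had received an intracardiac injection, and bone (femur and tibia), brain, liver and lung were taken after about 10 h of substrate labelling, dissociated with collagenase and sorted. Each of the 8 combinations of tissue and sort had 4 samples. Bone cells of a second injection route, abbreviated IIA by the submitters, came from 12 hashtagged samples, 6 positive and 6 negative, and were not used by the rule. Strain, age, sex, tumour line and the number of mice per sample were not stated in the labels. P-values therefore measure only the spread between these samples, which may be technical. A sample held 94 to 3505 kept cells and 497940 to 44874529 UMIs, with a median of 2606 to 11314 UMIs per cell.

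Kit encodes the receptor for stem cell factor, and Cd34 a sialomucin of the cell surface. In adult marrow both are carried by haematopoietic stem and progenitor cells, which sit beside vessels and stromal cells that supply stem cell factor and Cxcl12, and which give rise to granulocytes, monocytes, erythroid cells, megakaryocytes and lymphocytes. Hlf, Mecom, Meis1 and Hoxa9 are transcription factor genes of the most immature of these cells. The pair is not exclusive to them: capillary endothelium carries Cd34 and, in lung, Kit, while mast cells carry Kit.

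The cells sat close to the limits of the rule. Of the 243, 96 had a single UMI of Kit, 94 a single UMI of Cd34 and 44 a single UMI of each, while 97 had at least 2 of both. Highest counts in a cell were 10 UMIs of Kit and 20 of Cd34. Among cells with both genes, 147 were left out for Mcpt8 and 63 for the granulocyte precursor genes. The lowest of Elane, Mpo and Prtn3 was 3 UMIs in 4 cells just inside that limit, and 5 in 2 cells and 6 to 10 in 7 cells just outside it. As a measure of free RNA in the droplets, among 3303 cells with T cell transcripts 1.12% had a UMI of Kit, 0.333% one of Cd34 and 0.0908% both, at a median of 3587 UMIs per cell. Among 3934 cells with B cell transcripts these shares were 0.737%, 0.585% and 0.153%, at a median of 2582 UMIs. Kit/Cd34 cells were deeper, with a median of 10604 UMIs against 5252 over all kept cells, and 34 of them (14.0%) were among the 5% of cells per sample with the highest doublet score. S100a8, an abundant neutrophil gene, had a UMI in 98.8% of bone and 97.4% of brain Kit/Cd34 cells but also in 92.8% of T cells.

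In bone and brain the markers of stem and progenitor cells were present. Myb, a transcription factor gene of haematopoietic progenitors, had a UMI in 69 of 80 Kit/Cd34 cells of bone and 33 of 39 of brain, against 7.18% of T cells. Adgrg1, an adhesion receptor gene of stem cells, was found in 68 and 32 cells, and Meis1 in 60 and 31. Hlf was found in 41 and 24, Hoxa9 in 40 and 24, and Mecom in 33 and 13. The 10 endothelial list genes divided. Cdh5, the junction cadherin of vessels, had a UMI in 1 of 80 and 0 of 39, Plvap in 1 and 0, Cldn5 in 4 and 0, and Kdr in 4 and 2. Egfl7 was found in 53 and 21 against 0.696% of T cells, Pecam1 in 44 and 15 against 16.2%, Eng in 34 and 11, and Esam in 23 and 9, all of which are known in stem and progenitor cells as well as in vessels. Tie1 was found in 11 and 5, and Emcn in 15 and 4. The pan-leukocyte gene Ptprc was found in 68 of 80 and 34 of 39. Leading genes over the remaining cells of the same tissue were Ctla2a, Nrgn, Adgrg1 and Adgrl4 in bone and Nkx2-3, Myct1, Ctla2a and Sox4 in brain. Egfl7 and Adgrl4 were among the leading genes of both tissues and of the lung cells with endothelial markers described next. As the cells were selected by their transcripts, these values describe them and were not tested.

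In lung the markers went against the name. Cdh5 had a UMI in 62 of 70 Kit/Cd34 cells of lung, Cldn5, the endothelial tight junction gene, in 62, Gpihbp1, which anchors lipoprotein lipase in capillaries, in 60, and Sox17, an endothelial transcription factor gene, in 48. Ptprc was found in 24 of 70, Myb in 4 and Hoxa9 in 1. Gata2 and Ly6a, which are on the stem cell list, were found in 56 and 66 of the lung cells. Both genes are known in endothelium as well. In what follows a cell with at least 2 UMIs summed over Cdh5, Cldn5, Kdr and Plvap is called an endothelial-marker cell. This limit was set after the values were seen, so that comparisons of these cells are descriptions. It separated the 243 cells widely, with 160 at 0, 8 at 1 and 73 at 5 UMIs or more. Lung had 62 of them among 70 cells, liver 10 among 54, bone 3 among 80 and brain 0 among 39. The leading genes of the 62 in lung were Ramp2, Ptprb, Epas1, Adgrf5 and Hpgd, with Lyve1 among the first 20, an order that the choice of these cells partly fixes.

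One library held most of the lung cells. Positive replicate 1 had 51 of the 62 endothelial-marker cells of lung, positive replicate 2 had 9, positive replicate 4 had 1 and negative replicate 1 had 1. Among the 51, 16 also had Ptprc, with a median of 10730 UMIs against 6822 in the 35 without it, and 3 of the 16 but 0 of the 35 had a doublet score among the highest 5%. Over all tissues Ptprc was found in 19 of 75 endothelial-marker cells.

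The liver cells were mixed. Apart from the 10 endothelial-marker cells, 24 had a UMI of Xcr1, the chemokine receptor gene of cross-presenting dendritic cells, and 20 had neither mark. All but 1 of the 24 Xcr1 cells had Batf3 and Flt3, all 24 had Irf8 and 22 had Clec9a, genes that the same dendritic cells use, and 0 of the 24 had Myb or Hlf. In the 20 remaining liver cells Myb was found in 12, Hlf in 6 and Mpo in 7. Of these 20 cells 7 (35.0%) had a doublet score among the highest 5%, against 1 of the 24 Xcr1 cells, and the part of doublets in their mixed transcripts was not tested. H2-Ab1, an MHC class II gene, was found in all 24 Xcr1 cells of liver, at 6882 CPM (summed counts scaled to a common total). It was also found in 11 of the 20 remaining liver cells, at 2733 CPM, and in bone Kit/Cd34 cells it stood at 125 CPM. Negative replicate 1 of liver had 13 of the 24 cells. Xcr1 was used after its values were seen as a leading gene, and these cells are likewise a description. Over the series, 75 cells were endothelial-marker cells, 29 had Xcr1 and 139 had neither, of which bone held 76, brain 39, liver 20 and lung 4.

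**Figure D1:**
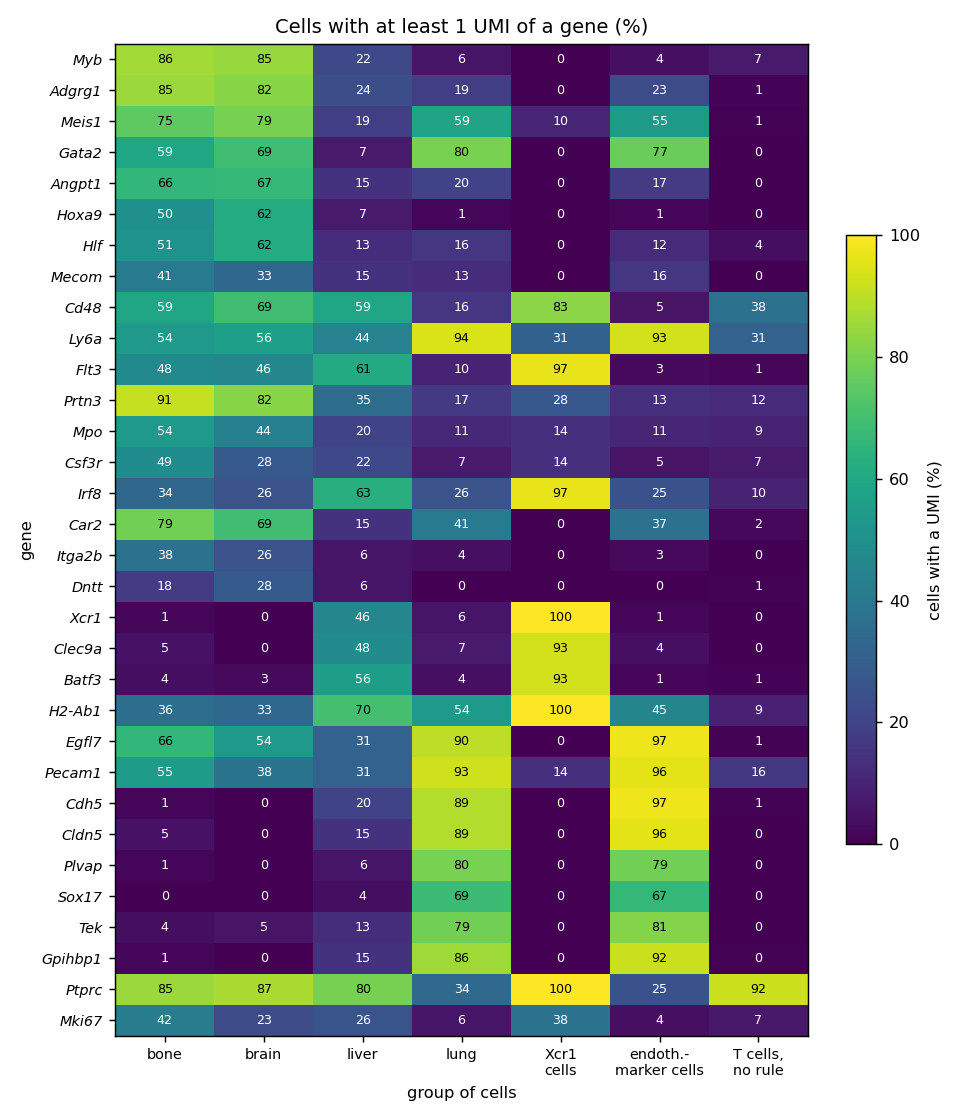
Percent of cells with at least 1 UMI of each gene (rows) among Kit/Cd34 cells of each tissue, among those with Xcr1 and those with endothelial markers over all tissues, and among T cells. The T cells were chosen without the rule, and 3 of them had both Kit and Cd34. Myb, Adgrg1 and Meis1 are high in bone and brain, Xcr1, Clec9a and Batf3 appear in liver, and Cdh5, Cldn5 and Gpihbp1 fill the lung column.

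**Figure D2:**
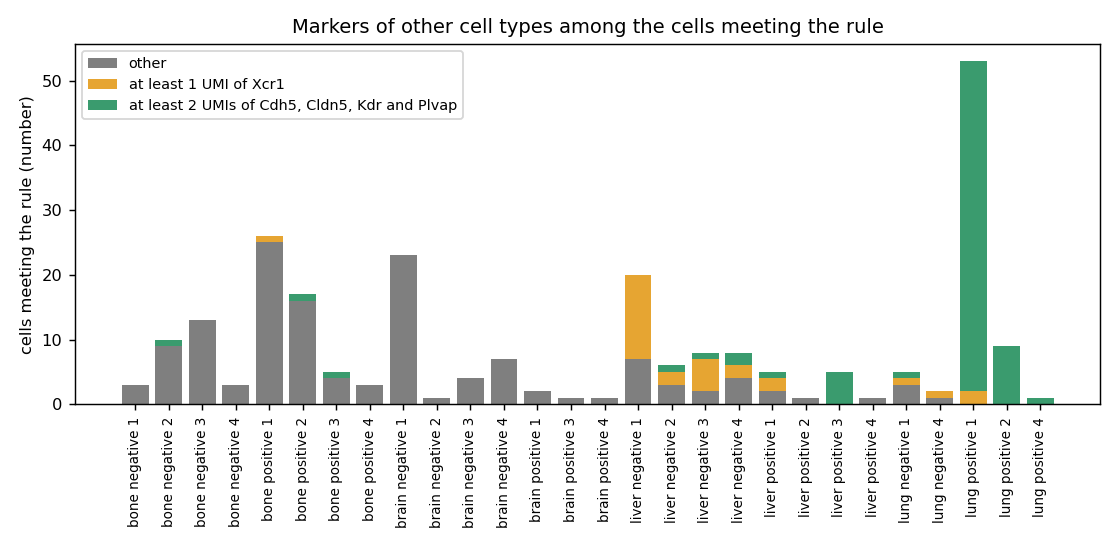
Number of Kit/Cd34 cells in each of the 28 samples that had any, split by the transcripts of other cell types they carried. Lung positive replicate 1 has 51 endothelial-marker cells, and liver negative replicate 1 has 13 cells with Xcr1.

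Lineage genes were read in the cells at equal depth, with each cell thinned at random to 2000 UMIs (242 of 243 were deep enough), counting cells with at least 2 UMIs of a list. The granulocyte and monocyte progenitor list reached this in 55 of 80 bone and 25 of 39 brain cells, and the list of erythroid and megakaryocyte genes in 39 and 18. The lymphoid progenitor list did so in 1 and 5, and the mast cell and basophil list in 4 and 6. Without thinning, Prtn3 had a UMI in 73 of 80 and 32 of 39 cells, Car2, a carbonic anhydrase gene of early erythroid progenitors, in 63 and 27, and Itga2b, the megakaryocyte integrin gene, in 30 and 10. Later erythroid genes were near absent, with Klf1 in 2 and 0 cells and Hba-a1 in 0 and 0. Dntt, the terminal transferase of lymphoid-primed progenitors, was found in 14 and 11, and Rag1 in 0 and 0. The mast cell proteases Mcpt4 and Cma1 were found in 3 of 39 brain cells and 0 of 80 bone cells, so that a few brain cells carried mast cell transcripts although the rule took out Mcpt8. Prtn3 and Mpo entered the rule only as an upper limit.

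The bone and brain cells varied among themselves. Of the 115 without Xcr1 or endothelial markers, 65 had Hlf. Mecom was found in 37 of these 65 (56.9%) and in 7 of the 50 without Hlf (14.0%), although the cells with Hlf were the shallower ones (median 10940 against 14329 UMIs). Cd27 went the same way, at 76.9% and 52.0%. Irf8, a monocyte and dendritic cell lineage factor, was found in 20.0% of cells with Hlf and 46.0% of those without, and Mki67, a proliferation gene, in 26.2% and 50%. For Irf8 and Mki67 the lower depth of the cells with Hlf runs the same way as the lower detection. Mpo was found in 49.2% and 54.0%. The cells share libraries, so these are descriptions over cells.

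The first comparison asked whether tagged samples held a different share of Kit/Cd34 cells than untagged ones. In bone they were 1.29%, 1.66%, 0.806% and 0.347% of kept cells in positive replicates 1 to 4, from 26, 17, 5 and 3 cells. In the negative replicates they were 0.101%, 0.389%, 0.531% and 0.0856%, from 3, 10, 13 and 3 cells. The positive sample was the higher in 4 of 4 pairs of the same replicate number, while the groups overlapped. The means were 1.03% ± 0.574 (SD, n = 4) and 0.277% ± 0.22 (n = 4), a difference of 0.751 percentage points. It did not pass a two-sided exact permutation test (p = 0.0857, adjusted over 4 tissues 0.343), for which 4 samples against 4 allow no p under 0.0286. At an equal 2000 UMIs per cell the difference was 0.167 percentage points, with the positive sample higher in 2 of 4 pairs: positive replicates 3 and 4 then had 0 Kit/Cd34 cells, and replicates 1 and 2 had 8 and 3. With at least 2 UMIs of both genes it was 0.342, higher in 3 of 4 pairs. A single sample's share rested on few cells: for positive replicate 2 the exact (Clopper-Pearson) 95% interval was 0.972% to 2.65%, counting error alone. Without endothelial-marker cells the bone means were 0.963% and 0.267%.

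In brain the direction was the opposite. Negative replicate 1 alone held 23 of the 39 cells (1.12% of its cells), and negative replicates 2 to 4 had 1, 4 and 7 cells, at 0.0687%, 0.364% and 0.245%. The positive replicates had 2, 0, 1 and 1 cells, at 0.362%, 0%, 0.323% and 0.149%, where the count of 0 in replicate 2 allows up to 0.444%. The positive sample was lower in all 4 pairs, and the groups overlapped (means 0.209% ± 0.167 and 0.450% ± 0.465, n = 4 each, exact permutation p = 0.486, adjusted 0.648). Without negative replicate 1 the difference shrank from -0.242 to -0.0174 percentage points. At 2000 UMIs per cell it was -0.113, from 0 positive cells and 4, 1, 1 and 1 negative ones (exact permutation p = 0.0286, adjusted 0.114). Cells with 5 or more UMIs of each of Elane, Mpo and Prtn3 were 5.62%, 0.137%, 0.546% and 2.80% of negative replicates 1 to 4. They were 0% to 4.53% of positive samples, and their part in the share of Kit/Cd34 cells was not tested. At 4 cells in all, the positive brain samples allow no account of expression.

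In liver the shares were 0.410%, 0.0965%, 0.673% and 1.06% in positive and 0.594%, 0.241%, 0.514% and 0.631% in negative replicates 1 to 4. The highest, positive replicate 4, was 1 of 94 cells. Means of 0.561% ± 0.410 and 0.495% ± 0.176 (n = 4 each) differed by less than the spread (exact permutation p = 0.80, adjusted 0.80). In lung the positive replicates were at 1.72%, 0.379%, 0% and 0.147%, and the negative ones at 0.181%, 0%, 0% and 0.0649%, where counts of 0 allow up to 0.247% in positive replicate 3 and 0.119% and 0.135% in the negative ones. Means were 0.563% ± 0.790 and 0.0615% ± 0.0854 (n = 4 each, exact permutation p = 0.257, adjusted 0.514), and without positive replicate 1 the difference fell from 0.501 to 0.114 percentage points. Without endothelial-marker cells the lung shares were 0.0163% in positive and 0.0524% in negative samples, so the order turned.

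**Figure D3:**
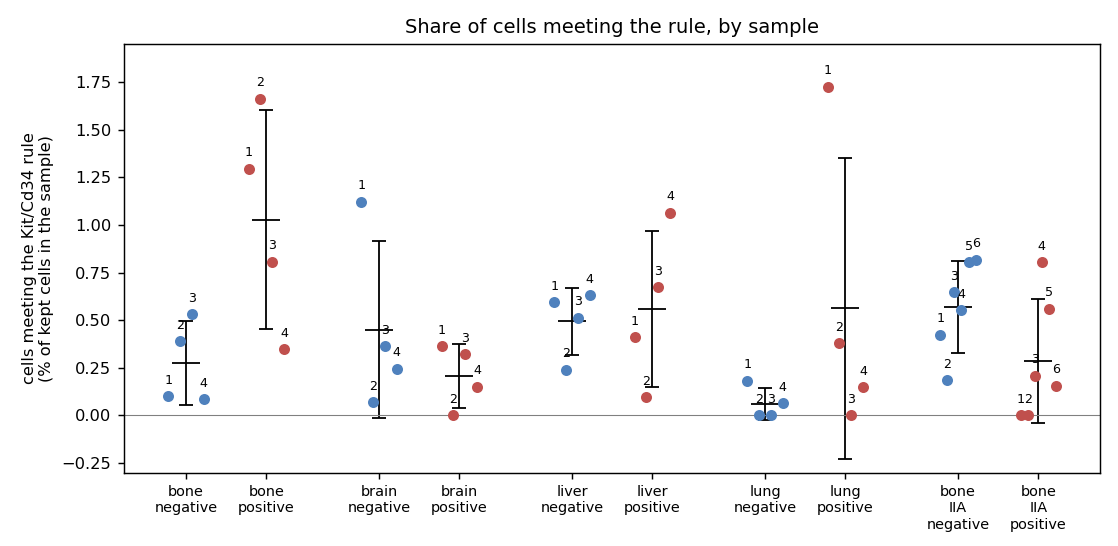
Kit/Cd34 cells as a percent of the kept cells of each sample; points are samples with their replicate number, the horizontal bar is the mean and the whisker 1 SD (n = 4 per group, 6 for IIA). Positive bone samples lie above their same-numbered negative ones, IIA positive samples mostly below theirs, and lung positive replicate 1 stands at 1.72%.

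The positive minus negative differences of the tissues were compared directly, permuting pairs between tissues (7 comparisons). Bone, at 0.751 percentage points, and brain, at -0.242, differed by 0.993 with every bone pair and no brain pair positive (exact permutation p = 0.0286, the smallest possible, adjusted 0.0667). Same-numbered samples of the tissues also shared a tag set, and with the number kept as a block 4 pairs allow no p under 0.125, which was the exact sign-flip p here. Brain and lung differed with the same p-values (-0.743 percentage points, exact permutation p = 0.0286, adjusted 0.0667, exact sign-flip p = 0.125 with the block). In them 0 of 4 and 3 of 4 pairs were higher, so that brain is the lower member of both. Here and in the other comparisons with lung, the number paired lung samples too. Lung replicates 2 and 3 did not correlate best with their own number (0.162 and -0.213). Without endothelial-marker cells the lung difference was -0.0362 percentage points, with 0 of 4 pairs higher, and brain stayed at -0.242. The other 4 comparisons among the 4 tissues gave adjusted values of 0.20 to 0.714. Between sorts of one kind, positive bone samples exceeded positive brain samples by 0.819 percentage points (exact permutation p = 0.0571, adjusted over 6 comparisons 0.343), and the other 5 comparisons of bone with another tissue gave adjusted values of 0.343 to 0.714. The ratio of Kit/Cd34 cells to early granulocyte precursors, with 5 or more UMIs of each of Elane, Mpo and Prtn3, was also set against the sort. In bone the mean log2 ratio was -2.86 ± 2.19 in positive and -3.86 ± 1.28 in negative samples (n = 4 each, exact permutation p = 0.486, adjusted 0.648). In brain it was -0.747 ± 2.08 and -1.75 ± 1.37, higher in 3 of 4 pairs, against the order of the share (exact permutation p = 0.457, adjusted 0.648). Lung had 2.35 ± 3.03 and 0.347 ± 2.18, and liver 0.632 ± 1.36 and 0.549 ± 0.685 (exact permutation, adjusted p = 0.648 and 0.914). The precursors themselves were 2.54% to 21.8% of positive and 0.844% to 7.48% of negative bone cells, and their part in the share of Kit/Cd34 cells was not tested.

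The IIA samples, which had no part in the rule, gave another picture. They held 17 Kit/Cd34 cells among 4889 positive and 103 among 17473 negative cells. Positive shares ran from 0% to 0.803% (median 0.183%) and negative shares from 0.186% to 0.817% (median 0.60%), with overlap. The means were 0.288% ± 0.325 and 0.572% ± 0.241 (n = 6 each, exact permutation p = 0.115), and 1 of 6 pairs had the higher share in the positive sample. Positive replicate 4 decided whether the test passed: its share of 0.803% came from 2 of 249 cells, and without it the difference grew from -0.283 to -0.386 percentage points (exact permutation p = 0.0281). Without endothelial-marker cells, which were 3 of the 17 positive and 0 of the 103 negative ones, it was -0.375 (exact permutation p = 0.0195). Granulocyte precursors with Elane, Mpo and Prtn3 filled 4.95% to 47.9% of the positive IIA samples and 1.69% to 4.87% of the negative ones. The part of this in the share of Kit/Cd34 cells was not tested. The difference of pairs in intracardiac bone exceeded that in IIA bone by 1.03 percentage points (exact permutation p = 0.00476, adjusted over 7 comparisons 0.0333), with 4 of 4 pairs higher in one and 1 of 6 in the other. At an equal 2000 UMIs per cell the same comparison gave 0.341 percentage points and an exact permutation p of 0.0857. The experiments also differ in chemistry, 3′ in intracardiac and 5′ in IIA samples, so route and chemistry cannot be told apart.

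Expression in the marrow cells was compared between the sorts on counts summed per sample. Only positive replicates 1 and 2 (26 and 17 cells) and negative replicates 2 and 3 (10 and 13 cells) had the 10 cells that a sample needed, and no other tissue had 2 such samples in each sort. Only replicate number 2 was thus in both sorts. The fit had no block for the number, so sort and replicate number are partly confounded in it. The tagged cells of the fit were shallower, with medians of 11589 and 7987 UMIs per cell against 19124.5 and 17953, so that counts of cells with a UMI are not at equal depth. In these 4 samples the tagged cells carried more of Hlf and of Mllt3, a chromatin factor gene tied to stem cell maintenance, and less of Ccr2, the receptor that draws monocytes to Ccl2, and of F13a1, a monocyte lineage gene. Of 6932 genes tested with edgeR's quasi-likelihood test, 30 passed a Benjamini-Hochberg adjusted p of 0.05, or 0.433%, of which 12 were higher (0.173%) and 18 lower (0.26%). At an unadjusted p under 0.05 there were 567 genes (8.18%). The count rests on the setting: DESeq2 called 0 genes at an adjusted p under 0.05 (104 unadjusted), and edgeR with samples of 5 or more cells called 0 (183 unadjusted). Without positive replicate 1 it was 156 and without negative replicate 3 it was 78, and of the genes described here Ccr2, F13a1, Ly6d and Pclaf passed without any 1 of the 4 samples. The bone samples too small for the fit did not always follow it. Of the 22 genes named by rule, 6 of those higher and 6 of those lower in the fit had the same order in positive replicates 3 and 4 together (8 cells) against negative replicates 1 and 4 together (6 cells). The order was the opposite for 4 of the higher ones (Hlf, Nceh1, H2-Eb1 and Cd74) and 3 of the lower ones (Ccr2, F13a1 and Orm1), and Meg3, Fcnb and Gpr183 were at 0 in both.

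Of the 18 stem and multipotent progenitor genes tested, 2 rose, 0 fell, and the median log2 difference was 1.08 against 0 over all genes. At an unadjusted p under 0.05, 9 of the 18 were higher and 1 lower, where 3.91% and 4.27% of all genes were. Hlf stood at 183 and 418 CPM in positive replicates 1 and 2 and at 29.5 and 59.9 CPM in negative replicates 2 and 3. It had a UMI in 12 of 26, 14 of 17, 3 of 10 and 6 of 13 cells, and the groups did not overlap (log2 difference 2.60, SE 0.54, edgeR adjusted p = 0.0189). Mllt3 was at 34.9 and 150 CPM against 4.22 and 3.99 (log2 4.13, SE 0.90, edgeR adjusted p = 0.0240), with 8 and 10 cells against 1 and 1. Neither gene passed without positive replicate 2 (log2 1.89 for Hlf and 2.85 for Mllt3), nor Hlf without negative replicate 2 (log2 2.24). In the small samples Hlf was at 35.4 CPM in the positive and 42.2 CPM in the negative ones, and Mllt3 at 41.3 and 8.45 CPM. Meis1 in the 4 fitted samples was at 206 and 131 CPM against 25.3 and 79.8, and Mecom at 34.9 and 137 against 29.5 and 24.0, values of genes that did not pass. Meis1, Mecom and Procr were chosen here after their values were seen. Procr, the endothelial protein C receptor found on long-term stem cells, had a UMI in 3 and 11 positive cells and in 0 and 1 negative cells, and did not pass either.

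Of the 13 granulocyte and monocyte progenitor genes tested, with the genes of the rule left out, 2 fell, 0 rose, and the median was -2.0, with 7 lower and 0 higher at an unadjusted p under 0.05. F13a1 was at 2.91 and 12.5 CPM in the positive samples against 261 and 160 in the negative ones, from 1 and 1 cells against 5 and 3, with 50 of 62 UMIs of negative replicate 2 and 20 of 40 of negative replicate 3 in 1 cell (log2 -5.12, SE 0.70, edgeR adjusted p = 1.98e-04). Ly86, the partner of a lipopolysaccharide-binding receptor on monocytes and dendritic cells, was at 8.72 and 6.24 CPM against 190 and 51.9, in 3 and 1 cells against 4 and 2 (log2 -3.98, SE 0.73, edgeR adjusted p = 0.00823). Ccr2, from the monocyte list, was at 2.91 and 6.24 CPM against 215 and 79.8, with 1 of 26 and 1 of 17 cells against 4 of 10 and 3 of 13 (log2 -5.17, SE 0.79, edgeR adjusted p = 6.32e-04). Gpr183, an oxysterol receptor of leukocytes, was at 11.6 and 0 CPM against 97.0 and 55.9, in 3 and 0 cells against 4 and 3. Without 1 sample F13a1 ran from log2 -6.13 to -4.09 and Ccr2 from -5.74 to -4.25, past the threshold each time, while Ly86 did not pass without negative replicate 2 (log2 -2.73) and Gpr183 not without positive or negative replicate 2 (log2 -2.80 and -2.90, against -3.36 with all). In the small samples the order of Ccr2 turned, at 76.8 CPM in the positive samples, with all 13 UMIs in 1 cell, and 8.45 CPM in the negative ones. F13a1 was at 159 and 135 CPM there, with 25 of 27 and all 16 UMIs in 1 cell.

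Some genes rested almost wholly on 1 cell of a sample. Ly6d, a marker of lymphoid-biased progenitors, had 26 and 29 UMIs in the negative samples, in 1 cell each, and 1 and 0 in the positive ones (log2 -5.69, SE 0.82, edgeR adjusted p = 3.10e-04). Of 2327 UMIs of Camp, a granule gene of neutrophils, in negative replicate 2, 2316 were in 1 cell, and of 789 in negative replicate 3, 774. The mature neutrophil list summed to 102515 and 39415 CPM in these negative samples, to 30500 and 47360 CPM in positive replicates 1 and 2, and to 911 to 1588 CPM in the other 4 bone samples. Mmp8 and Mmp9, proteases of neutrophil granules, were higher in the positive samples, yet all 79 and 48 UMIs of positive replicate 2 were in 1 cell. Fcnb, a ficolin gene of neutrophil precursors, had 0 UMIs in the positive samples and 46 and 2 in the negative ones, each time in 1 cell, and no fold is given for it because without negative replicate 2 both groups lie under 3 counts. Orm1, an acute phase protein gene, had 50 and 4 UMIs in the negative samples, in 1 cell each, and 0 and 1 in the positive ones. The part of neutrophil transcripts in these differences was not tested.

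The MHC class II list held 7 tested genes, of which 2 rose, with a median of 2.46, and 4 were higher and 0 lower at an unadjusted p under 0.05. H2-Eb1 was at 201 and 37.4 CPM in positive replicates 1 and 2 and 12.7 and 7.98 in the negative samples (log2 3.45, SE 0.71, edgeR adjusted p = 0.0189), and Cd74, the invariant chain, at 988 and 87.3 against 88.6 and 47.9 with overlap (log2 2.88, SE 0.61, edgeR adjusted p = 0.0189). In positive replicate 1 the only Xcr1 cell of bone held 50 of 69 UMIs of H2-Eb1 and 210 of 340 of Cd74, and 1 further cell held 17 of the remaining 19 and 123 of the remaining 130. With Xcr1 cells left out, H2-Eb1 (log2 2.11) and Cd74 (log2 1.74) no longer passed edgeR's adjusted threshold, nor did they without positive replicate 1 as a whole (log2 1.77 and 0.30). This setting also took a liver sample under 10 cells out of the fit, and 5 of 6434 genes then passed, all lower: Ly6d, F13a1, Ccr2, Ly86 and Pclaf. Hlf, at log2 2.64, did not pass there.

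In other genes that rose the counts were spread over more cells. Slc18a2, the vesicular monoamine transporter, was found in 15 of 26 and 11 of 17 positive cells and in 1 of 10 and 3 of 13 negative ones (81.4 and 143 against 4.22 and 20.0 CPM, log2 3.0, SE 0.66, edgeR adjusted p = 0.0240). Nceh1, a cholesterol ester hydrolase, was at 69.7 and 281 against 25.3 and 20.0 CPM, in 14 of 26 and 13 of 17 cells against 4 of 10 and 5 of 13 (log2 2.76, SE 0.63, edgeR adjusted p = 0.0341). In the small samples Nceh1 was at 17.7 CPM in the positive and 42.2 CPM in the negative ones. Txnip, a thioredoxin-binding protein of resting cells, was at 244 and 817 against 88.6 and 75.8 CPM, in 20 and 15 cells against 6 and 10 (log2 2.58, SE 0.54, edgeR adjusted p = 0.0189). Rgs1, a regulator of chemokine receptor signalling, was at 142 and 224 against 33.7 and 24.0 CPM, in 15 and 10 cells against 4 and 5 (log2 2.53, SE 0.55, edgeR adjusted p = 0.0240). Positive replicate 2 carried much of the differences of Nceh1 and Txnip, which were at log2 1.48 and 1.44 without it. Slc18a2 was at log2 2.57 without it, nearer to its value with all samples. None of these passed without it. Nceh1 and Rgs1 also did not pass without negative replicate 2 (log2 2.99 and 2.84) or 3 (2.59 and 2.29), nor Slc18a2 without negative replicate 2 (2.36). Meg3, an imprinted noncoding RNA of stem cells, had 4 and 45 UMIs in positive samples, in 3 and 9 cells, and 0 in the negative ones, at least 15.8-fold higher against 3 counts over the group. Positive replicate 2 carries this limit, and without it Meg3 was at least 1.89-fold higher. In all of these the positive and negative samples did not overlap, as was so for 18.9% of genes in that direction and 18.1% in the other. A fold in bulk sums of this kind cannot tell fewer expressing cells from less RNA per cell.

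**Figure D4:**
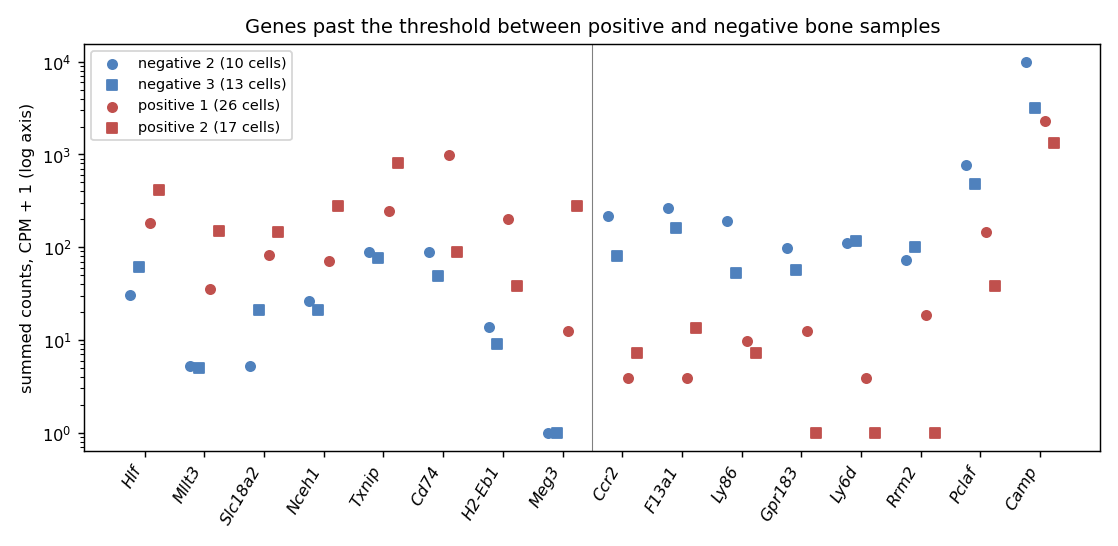
CPM plus 1, on a log axis, of 16 genes past the edgeR threshold in the Kit/Cd34 cells of the 4 bone samples with at least 10 such cells. The genes to the left of the line were higher in the positive samples (Hlf at 183 and 418 CPM against 29.5 and 59.9), and those to the right lower.

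Of 18 S phase genes 1 fell in the tagged marrow cells and the others did not pass, with 7 lower and 0 higher at an unadjusted p under 0.05 in edgeR. The gene that fell was Rrm2, a subunit of ribonucleotide reductase (17.4 and 0 against 71.7 and 99.8 CPM, in 3 and 0 cells against 4 and 7, log2 -2.99, SE 0.70, edgeR adjusted p = 0.0406), and the list's median was -0.95. Rrm2 passed with positive replicate 1 left out (log2 -7.75, fitted against 0 UMIs) but not without positive replicate 2 (-2.40) or negative replicate 2 (-3.17) or 3 (-2.78). Pclaf, a partner of the replication clamp that is on none of the lists, stood at 145 and 37.4 against 776 and 483 CPM, in 9 and 2 cells against 6 and 8 (log2 -2.80, SE 0.51, edgeR adjusted p = 0.00823), and without 1 sample it ran from -4.12 to -2.25. Of 20 G2 and M phase genes 0 passed edgeR's adjusted threshold and 5 were lower at an unadjusted p under 0.05, with a median of -0.61. Counted per cell at 2000 UMIs, at least 2 UMIs of the G2 and M list were held by 5 of 26 and 2 of 17 cells of positive replicates 1 and 2, and by 6 of 10 and 9 of 13 cells of negative replicates 2 and 3. The means, 15.5% and 64.6%, are of 2 samples each, and the exact permutation test cannot give less than its p of 0.333. Among these samples only replicate number 2 is in both sorts. With the samples of 3 to 5 cells added, at 2 of 5 and 1 of 3 in positive and 2 of 3 and 1 of 3 in negative replicates, the means were 26.1% and 57.3% (n = 4 each, exact permutation p = 0.0857). The contrast was not seen in the samples outside the rule: in IIA bone 12 of 17 positive (70.6%) and 24 of 100 negative cells (24.0%) passed the same mark. In IIA positive samples 9 of the 12 came from replicate 5.

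**Figure D5:**
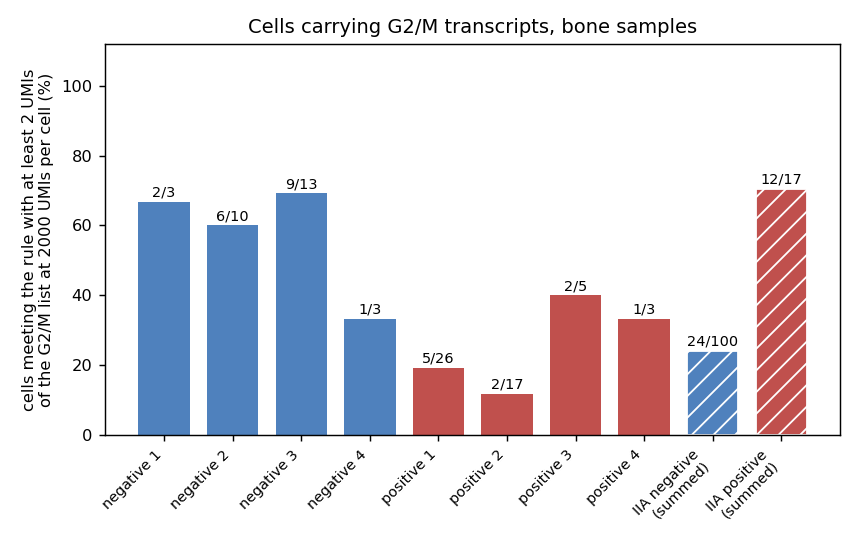
Percent of Kit/Cd34 cells with at least 2 UMIs of the 20 G2 and M phase genes, each cell thinned to 2000 UMIs; numbers over the bars are cells with the mark over all cells. Intracardiac bone samples are given by replicate and IIA bone samples as sums; the order of the sorts is 60% and 69.2% against 19.2% and 11.8% in the 4 larger intracardiac samples and turns around in IIA.

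Of the other lists in the marrow comparison, quiescence and cell cycle inhibitor genes had 1 of 8 rising (Txnip, median 0.63) and interferon-stimulated genes 1 of 14 falling, Ifi27l2a, with 37 of its 47 UMIs in negative replicate 3 in 1 cell. The median of the interferon list was 0.89, and 4 of the 14 were higher and 1 lower at an unadjusted p under 0.05. The mature neutrophil list had 1 of 9 rising (Mmp8) and 1 falling (Camp), with a median of -0.89 and 2 higher and 5 lower at an unadjusted p under 0.05. The monocyte list had 1 of 6 falling (Ccr2), with a median of -2.16 and 5 lower at that p. No member passed among 6 erythroid, 7 megakaryocyte, 5 lymphoid, 5 mast cell, 10 endothelial, 4 stromal, 19 growth factor receptor, 19 immediate early and heat shock, 8 inflammatory, 11 glycolysis and hypoxia, and 10 Myc and ribosome biogenesis genes tested with edgeR. Of these lists, the immediate early and heat shock genes had 7 of 19 higher and 2 lower at an unadjusted p under 0.05, with a median of 0.69, and the erythroid, growth factor receptor and inflammatory lists had 1, 1 and 2 higher and 2, 1 and 2 lower. The megakaryocyte and endothelial lists had 1 lower each and 0 higher, and the lymphoid, mast cell, stromal, glycolysis and hypoxia, and Myc lists had 0 in either direction. The shares of cells with at least 2 UMIs of stem genes (88.5% and 88.2% against 80% and 84.6%) and of erythroid and megakaryocyte genes (50% and 47.1% against 60% and 61.5%) at equal depth are also of 2 samples each, and their exact permutation p of 0.333 is the smallest possible. With the samples of 3 to 5 cells added, the order of the erythroid and megakaryocyte share turned, at 42.6% in positive and 38.7% in negative samples (n = 4 each, exact permutation p = 0.886).

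Outside marrow the cells could be described only within a sort. Brain negative samples held 35 of the 39 brain cells. Genes of the immediate early and heat shock list summed to 15255 CPM in them and to 3678 CPM in bone negative and 4757 CPM in bone positive cells. In lung positive samples they summed to 20986 CPM. These differences were not tested. Cdkn1a, a cell cycle inhibitor and stress gene, was found in 28 of 39 brain cells and 33 of 80 bone cells. The G2 and M mark was held by 17.1% of brain negative, 14.6% of liver negative and 1.59% of lung positive cells.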

How the data were processed

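Gene by cell UMI count matrices of 32 intracardiac samples (Cell Ranger 6.1.2, CellPlex 3′ chemistry) and of 1 pooled IIA library (Cell Ranger 7.1.0, TotalSeqC hashtags, 5′ chemistry) were the values the authors deposited, per the file headers and labels. Counts are whole UMIs per gene, not normalized. Build mm10 and Seurat stand in the submitters' processing notes, and gene positions come from the GENCODE annotation of that build. An IIA barcode went to a hashtag with at least 10 counts and 3 times the second (22685 of 26666 barcodes). The members, the 25 gene lists and the rules were chosen with earlier results of these data known.

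Cells were kept with 500 UMIs, 200 genes and at most 15% mitochondrial UMIs (55366 of 57065). Doublets were not removed; Scrublet scores (scanpy 1.11.5) served as an alternative. Shares per sample were compared by two-sided exact permutation tests (scipy 1.17.1) with Benjamini-Hochberg adjustment. Counts summed over samples with at least 10 Kit/Cd34 cells (7 samples, 5 groups, 2 residual degrees of freedom) were tested with edgeR 4.0.16 (TMM, filterByExpr) in R 4.3.3, with DESeq2 1.42.0 as an alternative. On simulated data 27.6% of genes changed 4-fold (2 on the log2 scale) and 3.06% of those changed by 1 on the log2 scale were called, with 0 of 5739 unchanged genes. The simulated counts had the same assumed spread for all genes and the same unchanged profile in all tissues. They held no genes whose counts lie mostly in a single cell, as in these sums. The rate of false calls in the real data was therefore not measured. Genes named are up to 10 in each direction of largest change among those past the threshold whose groups did not overlap, and list genes that passed. CPM are summed counts scaled to a common total. Intervals are exact (Clopper-Pearson, 95%), and a count of 0 is given with the share that 3 counts would make; both cover counting error only. Same-numbered samples shared a set of 8 tags, and the correlations of their deviations from group means were 0.302 to 0.778 in bone, brain and liver and -0.213 to 0.584 in lung, so that numbers were taken to pair samples outside lung. The pair counts, block values and comparisons of pairs that involve lung used the number there all the same. In the expression comparison, single list genes that did not pass were chosen after they were seen. 1 further list gene is not reported here.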

Additional observations from a re-analysis of the deposited data

Results flagged for a closer look

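Of 38 groups checked for a sample far from the others, 5 had one. The rule marks about 1 in 20 groups of normally spread values, a rate that need not hold for counts this sparse. A group in which a single sample is above 0 is always marked. With cells thinned to 2000 UMIs, IIA positive replicate 4 had Kit/Cd34 cells at 0.581% against 0% to 0.0554% in the other 5, and liver positive replicate 3 had 0.176% against 0% in the other 3. Each of these is 1 cell, of 172 and of 569, and the liver sample with 60 thinned cells could not show such a share. Cells with 5 or more UMIs of each of Elane, Mpo and Prtn3 were 4.53% of brain positive replicate 1 against 0% to 0.448% in the other 3, and 1.75% of liver positive replicate 3 against 0% to 0.246%. Kit/Cd34 cells without endothelial markers were 0.0651% (2 cells) of lung positive replicate 1 and 0% of the other 3.

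The positive minus negative share was compared between tissues and between experiments, in 7 comparisons. It was 0.993 percentage points higher in bone than in brain, with 4 of 4 and 0 of 4 pairs higher (exact permutation p = 0.0286, adjusted 0.0667, so that it failed the adjustment). With the number as a block the exact sign-flip p was 0.125. With the same p-values it was 0.743 percentage points lower in brain than in lung. Without endothelial-marker cells the lung difference was -0.0362, with 0 of 4 pairs higher, and brain stayed at -0.242. The positive minus negative share was 1.03 percentage points higher in intracardiac than in IIA bone, with 4 of 4 and 1 of 6 pairs higher (exact permutation p = 0.00476, adjusted 0.0333), and at 2000 UMIs per cell 0.341 percentage points (exact permutation p = 0.0857). Both are bone, of another route and chemistry.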

How the results depend on the processing

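Of 523 alternatives over all results, 346 were counted as unchanged and 20 reversed. For shares and single genes, unchanged meant the same direction and side of the threshold. For the shares of cells by gene list it meant no turn of direction, and for the number of called genes a similar number. Causes were not tested. The bone share difference kept its sign in all 15 alternatives (0.539 to 0.978 percentage points without 1 sample, 0.167 at 2000 UMIs per cell, 0.342 with 2 UMIs of both genes, 0.232 without cells of the endothelial list or of Cd3e, Cd79a or C1qa), as did brain (-0.369 to -0.0174 without 1 sample, the latter without negative replicate 1). Lung ran from 0.114 (without positive replicate 1) to 0.689. At 2000 UMIs per cell bone minus lung in positive samples was -0.0231 and bone minus liver in negative samples 0.0193. Liver reversed to -0.199 (log2 ratio -0.165) without the highest doublet scores, and its log2 ratio to -0.268 at a 10% mitochondrial limit. Without cells of the endothelial list, or of Cd3e, Cd79a or C1qa, liver was -0.239, lung -0.0181, their log2 ratios -0.595 and -0.275, and IIA -0.179 (exact permutation p = 0.0152); leaving out endothelial-marker cells, chosen after seeing the data, gave -0.0574, -0.0362, -0.652, -0.487 and -0.375. Without 1 sample, liver ran from -0.102 to 0.22, its log2 ratio from -0.245 to 0.725 (-0.235 without positive replicate 2 or 4), bone minus brain in negative samples from -0.301 to 0.0509 (the latter without brain negative replicate 1) and IIA from -0.386 to -0.225; liver without negative replicate 2 was -0.0190. With 3 or more cells per sample the erythroid and megakaryocyte difference was 3.88 percentage points.

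The 30 bone genes became 0 with DESeq2, 11 with RLE size factors, 66 with no filter on low counts, 2 in the bone groups alone, 0 with 5 or more cells per sample, 5 without Xcr1 cells, and 25 to 156 without 1 sample. The replicate block left shares at 0.751 in bone (exact sign-flip p = 0.125), -0.242 in brain, 0.0658 in liver, 0.501 in lung and -0.283 in IIA, and changed no call on a share; with 5 or more cells it gave 2 genes in edgeR. The block with 10 cells, 20 or more cells, 2 UMIs of both genes, and the endothelial list exclusion could not be fitted to expression. Few cells per sample (0 to 53) limit every share.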
